A study of Rattus norvegicus with 8 samples.

Results

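MicroRNAs made from the hairpins miR-143, miR-145, miR-199a and miR-214 were followed in C6 cells, a glial tumour line of rat origin, on Agilent miRNA arrays. The members were taken by name, as every arm of these 4 hairpins on the array, which gave 8 of the 719 rat miRNAs. Cells were dosed every day for 5 days with haloperidol at 2 µg/ml, with risperidone at 4 µg/ml, or with clozapine at 25 µg/ml, and untreated cells were the controls; each of these 4 groups had 2 arrays. All groups were cultures of the same line in medium with horse and fetal bovine serum, and 100 ng of total RNA was labelled per array. Per the design text, both arrays within a group are biological repeats. The concentrations differ between drugs, so values of 2 drugs stand side by side and are no comparison at matched dose.

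miR-143 and miR-145 are made from a single long transcript, the host RNA Carmn, and in mouse and human they are abundant in smooth muscle, pericytes and fibroblasts, where they favour the contractile smooth muscle state. miR-199a and miR-214 are made from a transcript that runs antisense inside the dynamin gene Dnm3, and in mouse they mark limb and craniofacial mesenchyme and other connective tissue. Both clusters are widely used as signs of mesenchymal cells in tissue RNA.

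All 8 arms had a mature sequence in RefSeq (rat build GRCr8). The 5 main arms are shown because the array reads these short RNAs, and the seed (bases 2 to 8, in capitals) is the part that selects targets.
rno-miR-143-3p: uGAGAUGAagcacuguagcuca
rno-miR-145-5p: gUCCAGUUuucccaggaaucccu
rno-miR-199a-5p: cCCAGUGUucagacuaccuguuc
rno-miR-199a-3p: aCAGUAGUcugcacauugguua
rno-miR-214-3p: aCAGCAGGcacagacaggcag
The 8 arms had 8 different seeds, and no other mature miRNA of the RefSeq table (693 in all) shared any of them. The members therefore form clusters by position, not by seed. Mir145 (chr18:57369983-57370070) lay 1278 bases from Mir143 (chr18:57371349-57371453, minus strand), both within the span of the long non-coding RNA gene Carmn. Mir199a2 (chr13:77116225-77116334) lay 5310 bases from Mir214 (chr13:77121645-77121752, plus strand), both within the span of the protein-coding gene Dnm3. In mouse and human the mature miR-199a-3p sequence is also made from hairpins in introns of other dynamin genes, and its probes do not tell which gene it came from.

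By the deposited detection call, 4 of the 8 arms were detected in C6 cells on at least 1 array, beside 263 of all 719 miRNAs. miR-199a-3p and miR-199a-5p were detected on 8 of 8 arrays, as were 185 of all 719 miRNAs. miR-143-3p was detected on 7 arrays and miR-214-3p on 6. miR-145-5p and miR-145-3p, miR-143-5p and miR-214-5p were detected on 0 of 8 arrays, treated or not. So the defining smooth muscle miRNA, miR-145-5p, was not seen above background in any group, while its neighbour miR-143-3p gave a weak signal. In the Mir143 and Mir214 hairpins the 3p arm (in capitals) was detected and the listed 5p arm was not. The listed miR-214-5p is only 17 bases long, and whether it is the strand that pairs with miR-214-3p was not tested. Its absence therefore does not show that the Mir214 hairpin gives its 3p arm alone.
Mir143 hairpin: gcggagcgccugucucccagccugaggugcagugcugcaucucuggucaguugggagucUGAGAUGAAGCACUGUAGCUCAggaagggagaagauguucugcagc
Mir214 hairpin: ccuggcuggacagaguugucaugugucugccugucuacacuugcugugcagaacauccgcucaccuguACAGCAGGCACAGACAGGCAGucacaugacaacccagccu

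Each arm had 2 probes and 20 spots per array. All 160 spots of miR-199a-3p over the 8 arrays were well above background, against 68 of 160 for miR-199a-5p, 60 of 160 for miR-214-3p, 59 of 160 for miR-143-3p and 0 of 160 for each of the 4 undetected arms. For miR-143-3p and miR-199a-5p these spots all came from 1 of the 2 probes. On both clozapine arrays and on risperidone replicate 2, 0 of 20 spots of miR-214-3p were well above background. No spot on any array was saturated.

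**Figure D1:**
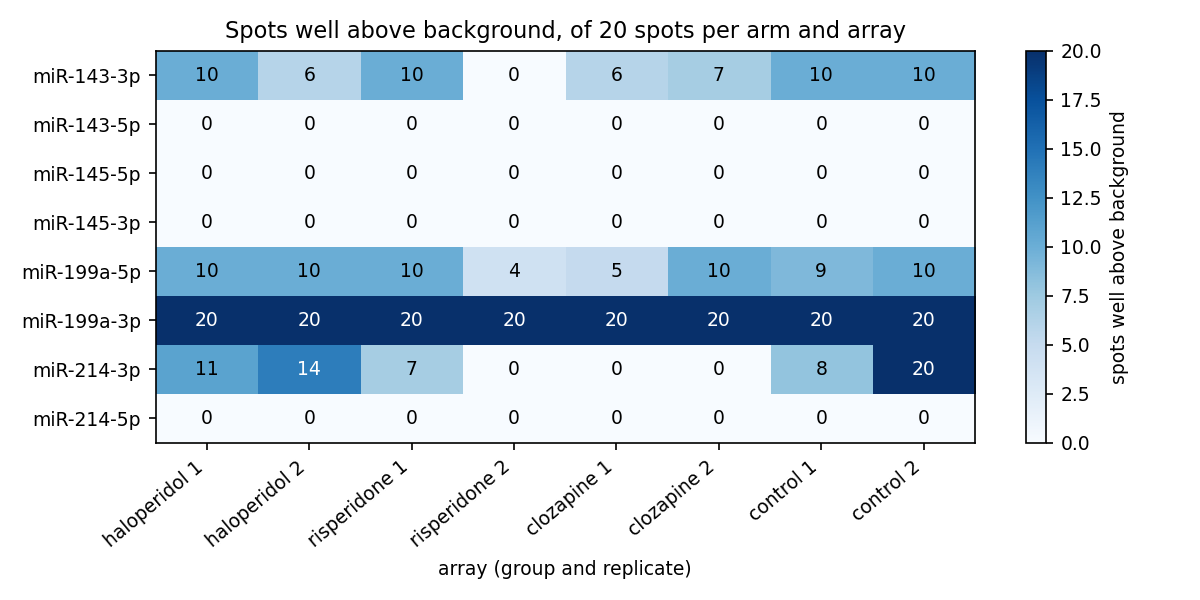
Number of spots well above background (colour and digits, of 20 spots) for each of the 8 arms (rows) on each of the 8 arrays (columns, by group and replicate). miR-199a-3p has 20 on every array, the arms of miR-145 have 0 on every array, and miR-214-3p has 0 on risperidone replicate 2 and on both clozapine arrays.

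For the tests, each miRNA's background-subtracted spots were averaged within a probe and the probes added up. This sum was scaled to the 75th percentile of the array, computed from 291 probes that exceeded background throughout, and expressed as log2. Level 0 thus stands for the percentile itself, and -6.22 was the floor. A miRNA was tested when both arrays of at least 1 group detected it, which kept 243 miRNAs and 4 of the 8 members (miR-143-3p, miR-199a-3p, miR-199a-5p and miR-214-3p). Levels of different miRNAs come from different probes and are not read as relative amounts here. Sums over the markers of a cell type add signals of different probes, and each sum is compared only between arrays. Over the 8 arrays 193 to 254 miRNAs were detected, fewest on risperidone replicate 2 and clozapine replicate 2, which also had the lowest labelling spike-in signal (log10 2.73 and 2.88, against 2.99 to 3.12 on the other arrays).

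rno-miR-199a-3p, which in human cells targets the transcripts of MTOR and MET, was the 1 bright member. The haloperidol arrays had log2 levels of 0.79 and 1.04, the risperidone arrays 0.82 and 1.04, the clozapine arrays 0.85 and 1.01, and the control arrays 1.07 and 1.34 (replicates 1 and 2). Every drug array lay below both control arrays, and within each group replicate 2 was the higher array. Before any scaling, the deposited summed signal was 1737 and 1350 for haloperidol, 1301 and 549 for risperidone, 973 and 936 for clozapine, and 1513 and 1666 for controls.

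The group means of miR-199a-3p were 0.91 ± 0.17 with haloperidol, 0.93 ± 0.16 with risperidone, 0.93 ± 0.12 with clozapine and 1.21 ± 0.19 in controls (SD, n = 2 each). The log2 fold change against control was -0.29 with haloperidol (95% interval -0.74 to 0.15), -0.27 with risperidone (-0.72 to 0.17) and -0.27 with clozapine (-0.72 to 0.17), each with a standard error of 0.18. These are 1.23-fold, 1.21-fold and 1.21-fold lower values, and none passed limma's test (adjusted p = 0.581, 0.521 and 0.572 over all 243 miRNAs). With the percentile taken over all probes instead, the values were -0.17, 0.31 and 0.37, so that the sign turned for risperidone and clozapine, where the median of all tested miRNAs moved to 0.35 and 0.42. The 3 comparisons share the same control arrays, so the likeness of the 3 values is not independent.

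The slide carried all replicate 1 arrays in its first row and all replicate 2 arrays in the other, so drug and control were also compared within a row. For miR-199a-3p the row 1 differences from control were -0.28 (haloperidol), -0.25 (risperidone) and -0.22 (clozapine). In row 2 they were -0.31, -0.30 and -0.33 for the same drugs. The values of both rows were below 0 for each drug, with 1 array on each side. This sign was fixed, because every drug array lay below both controls, so it adds no support. The 2 probes of miR-199a-3p gave like values: for haloperidol -0.32 and -0.28, for risperidone -0.29 and -0.26, for clozapine -0.30 and -0.26. A shift of this kind was common on these arrays: for 48 of the 243 tested miRNAs (19.8%) every drug array lay below both control arrays, for 4 (1.65%) every drug array lay above, and the 243 miRNAs had a median change of -0.15, -0.15 and -0.17 under the 3 drugs.

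**Figure D2:**
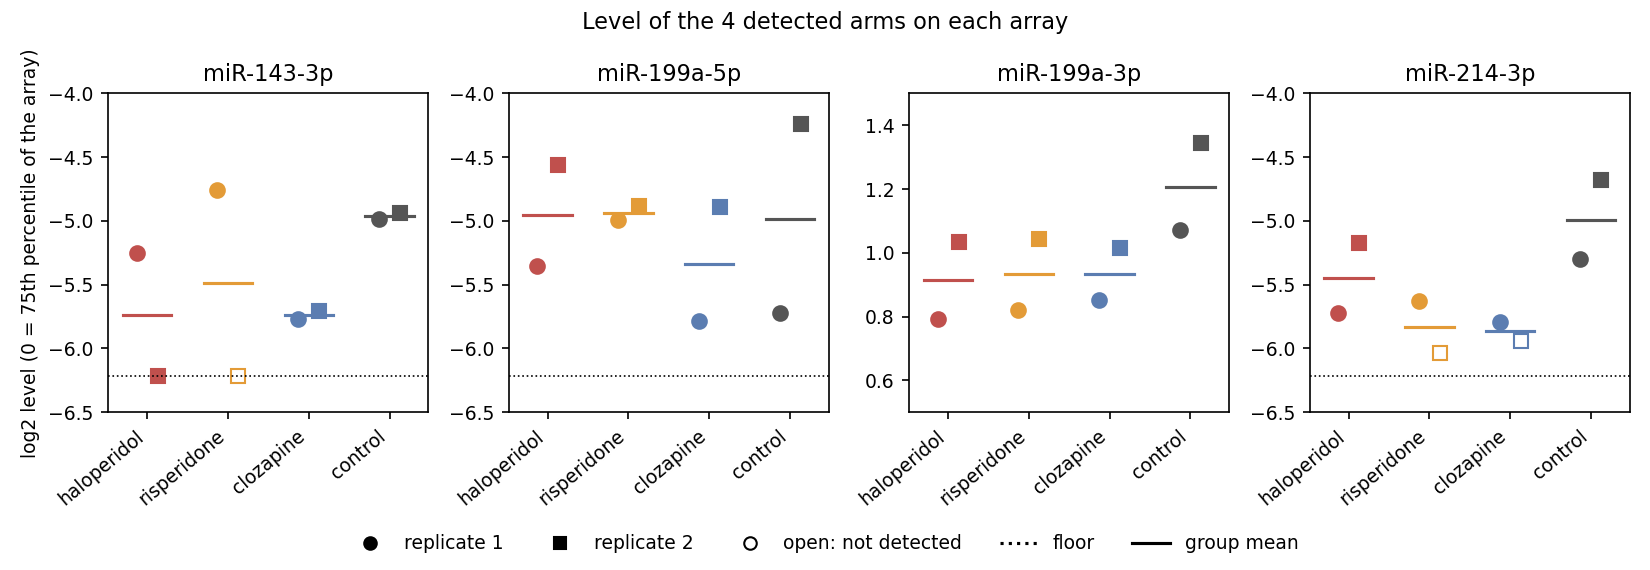
Log2 level (vertical axis, 0 is the array's 75th percentile) of the 4 detected arms in each group, with circles for replicate 1, squares for replicate 2, open symbols where the arm was not detected, lines for group means and a dotted line at the floor of -6.22; the vertical scale of miR-199a-3p is its own. For miR-199a-3p the 6 drug arrays lie between 0.79 and 1.04, below the controls at 1.07 and 1.34, while miR-199a-5p spans -5.72 to -4.24 within the controls alone.

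rno-miR-199a-5p, the other arm of the same hairpin, which in human and mouse cells targets the transcripts of Hif1a and Cav1, gave no such order. The haloperidol arrays had log2 levels of -5.35 and -4.56, the risperidone arrays -4.99 and -4.88, the clozapine arrays -5.79 and -4.89, and the control arrays -5.72 and -4.24. The 2 control arrays alone enclosed all haloperidol and risperidone arrays, and clozapine replicate 1 lay just below them. The log2 fold change was 0.03 with haloperidol (95% interval -1.45 to 1.51), 0.05 with risperidone (-1.43 to 1.52) and -0.36 with clozapine (-1.84 to 1.12). None passed (limma adjusted p = 0.995, 0.970 and 0.789). The intervals reach past 1 log2 unit on both sides, so a change of that size was not detectable for this arm. The 1 probe with spots above background gave 0.09, 0.19 and -0.19 for haloperidol, risperidone and clozapine, and the other was not well above background on any array. Within slide row 1 the difference was 0.37, 0.73 and -0.06 for haloperidol, risperidone and clozapine, and within row 2 it was -0.32, -0.64 and -0.65, so the sign turned between rows for haloperidol and risperidone.

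rno-miR-214-3p, which represses Ezh2 in human and mouse cells, was not well above background on risperidone replicate 2 or either clozapine array. Of these, the deposited call was detected on clozapine replicate 1 and not detected on risperidone replicate 2 and clozapine replicate 2. Its values on these arrays are signals near background, and differences that use them are not exact. The haloperidol arrays had log2 levels of -5.72 and -5.17, the risperidone arrays -5.62 and -6.04, the clozapine arrays -5.80 and -5.94, and the control arrays -5.30 and -4.68. The measured values of the risperidone and clozapine arrays lay below both controls, and haloperidol replicate 2 overlapped them. The fitted log2 fold change was -0.46 with haloperidol (SE 0.31), -0.84 with risperidone (95% interval -1.61 to -0.08, unadjusted p = 0.0366 in limma) and -0.88 with clozapine (-1.64 to -0.11, unadjusted p = 0.0317 in limma). None passed after adjustment (limma adjusted p = 0.581, 0.454 and 0.326). An unadjusted p under 0.05 was given to 6.58% of all tested miRNAs with haloperidol, 8.64% with risperidone and 14.8% with clozapine. Within slide row 1 the difference was -0.42, -0.33 and -0.50 for haloperidol, risperidone and clozapine, and within row 2 it was -0.49, -1.36 and -1.26, of which the risperidone and clozapine values rest on arrays not well above background. Without control replicate 2 the fitted values were -0.15, -0.53 and -0.57, and without control replicate 1 they were -0.77, -1.15 and -1.19. With normexp background correction the sign turned for risperidone (0.42) and clozapine (0.998).

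The 3 lowest measured values of miR-214-3p were on the 3 arrays with the lowest overall signal. The 75th percentile signal was 388 on risperidone replicate 2, 796 and 689 on the clozapine arrays, and 955 to 1480 on the other 5 arrays. Since no spot of miR-214-3p was well above background on either clozapine array, its level there is only a bound. For the brighter of its 2 probes, the lowest signal of any probe well above background was taken as the bound on each clozapine array. These bounds were -5.92 and -5.68 (replicates 1 and 2), with a mean of -5.80, against a control mean of -5.70. The mean bound was thus 1.07-fold lower than the control mean, but the bound of clozapine replicate 2 lay above it. The bounds therefore do not place both clozapine arrays below the controls.

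rno-miR-143-3p, which acts with miR-145 on smooth muscle genes, was at the floor on 2 drug arrays. The haloperidol arrays had log2 levels of -5.25 and -6.22, the risperidone arrays -4.76 and -6.22, the clozapine arrays -5.77 and -5.70, and the control arrays -4.99 and -4.94. The arrays at the floor were haloperidol replicate 2, where the arm was still called detected, and risperidone replicate 2, where it was not. Risperidone replicate 1, in contrast, was the highest of all 8 arrays.

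The log2 fold change of miR-143-3p was -0.77 with haloperidol (95% interval -2.14 to 0.59), -0.53 with risperidone (-1.89 to 0.84) and -0.77 with clozapine (-2.14 to 0.59). None passed (limma adjusted p = 0.588, 0.591 and 0.572). The haloperidol value was -1.26 without haloperidol replicate 1 and -0.29 without haloperidol replicate 2. The risperidone value was -1.26 without risperidone replicate 1 and 0.20 without risperidone replicate 2, and with normexp the sign turned for risperidone (0.47) and clozapine (0.996). Within row 1 the differences were -0.27, 0.23 and -0.78 for haloperidol, risperidone and clozapine. Within row 2 they were -1.28, -1.28 and -0.77, the first 2 of them set by the floor.

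**Figure D3:**
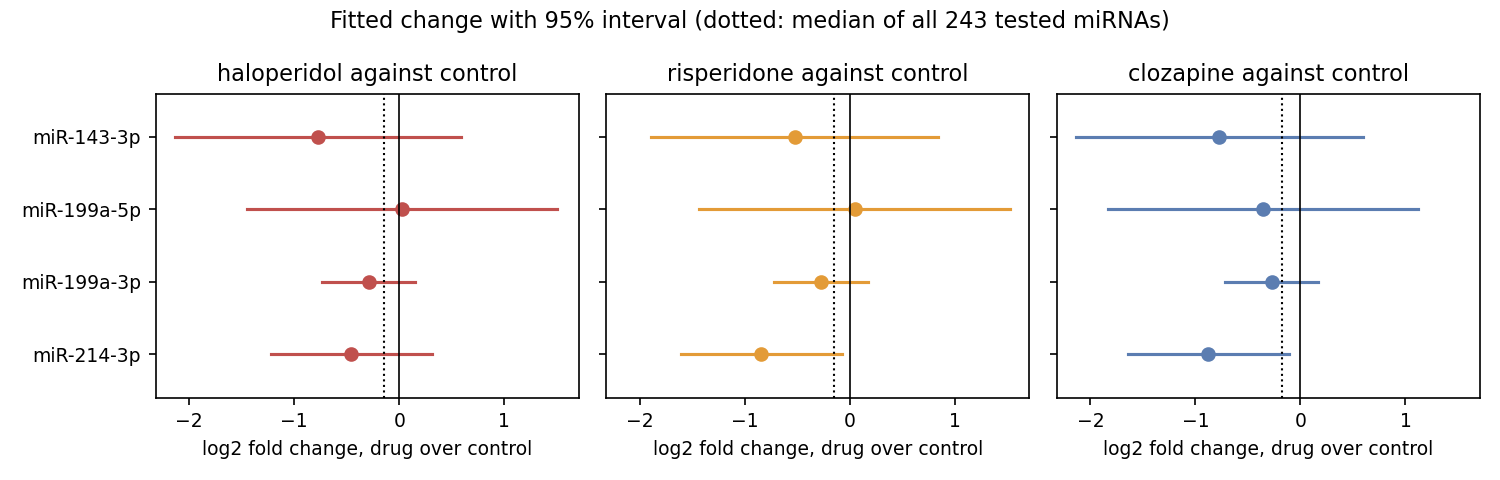
Fitted log2 fold change of each detected arm, drug over control (horizontal axis; points are estimates from 2 arrays per group, bars are 95% intervals from limma), with a dotted line at the median of all 243 tested miRNAs. The bars of miR-199a-3p are the narrowest, and only those of miR-214-3p with risperidone and clozapine do not cross 0, neither passing after adjustment and both using arrays where no spot of this arm was well above background.

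The dim members shared a background that differed between drug and control arrays. The 456 miRNAs detected on no array had a median probe signal below 0 on every array, at -4.41 and -4.19 for haloperidol, -4.27 and -5.13 for risperidone, -4.13 and -5.79 for clozapine, and -2.46 and -3.42 for controls. All 6 drug arrays were thus lower than both control arrays. Of the 4 undetected arms, miR-145-5p, miR-145-3p and miR-143-5p had the same order of arrays, and miR-214-5p did not. Its summed signal was -6.21 and -6.31 on the haloperidol arrays and -6.02 on risperidone replicate 1, all above control replicate 2 at -6.49. The summed signal of rno-miR-145-5p was -14.2 to -10.7 on the drug arrays, and -5.17 and -10.0 on the controls. The sums of miR-143-3p, miR-199a-5p and miR-214-3p were 50.5 or less on every array, where such an offset is a visible share.

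When that median was taken as zero on each array, an alternative chosen after seeing the data, miR-214-3p had log2 fold changes of -0.31 (haloperidol), -0.13 (risperidone) and -0.29 (clozapine). The value of miR-143-3p became -0.48, -0.13 and -0.25 for the same drugs. The value of miR-199a-3p stayed at -0.29, -0.27 and -0.27. The differences of the dim arms from control therefore depended on where zero was set, and those of the bright arm did not.

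Counted together, 0 of 4 tested members passed against control under any drug, and so did 0% of all tested miRNAs. With haloperidol 3 of 4 members had a log2 fold change below 0 (61.7% of all tested miRNAs), with risperidone 3 of 4 (60.5%) and with clozapine 4 of 4 (66.3%). The arrays did not overlap, with the drug lower, for 2 of 4 members with haloperidol (32.1% of all), 2 of 4 with risperidone (32.9%) and 3 of 4 with clozapine (33.7%), counting miR-214-3p at its measured values, and no member had its drug arrays wholly above control (11.5%, 7% and 5.35% of all). The median over the 4 members was -0.38, -0.40 and -0.56 under the 3 drugs. With the replicate number as a block, limma called 1 miRNA with risperidone and 2 with clozapine, and 0 of 4 members under any drug (smallest adjusted p of a member 0.155). Without control replicate 2 the calls were 5 with haloperidol, 6 with risperidone and 7 with clozapine, again with no member among them.

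Between drugs, 0% of the 243 miRNAs passed in any of the 3 comparisons, and an unadjusted p under 0.05 was given to 0% for risperidone over haloperidol, 1.23% for clozapine over haloperidol and 1.65% for clozapine over risperidone. For miR-199a-3p the difference was 0.02 for risperidone over haloperidol (95% interval -0.43 to 0.46), 0.02 for clozapine over haloperidol (-0.43 to 0.46) and 0.00 for clozapine over risperidone (-0.44 to 0.44). In the order of its group means haloperidol was lowest and controls highest, and the 3 drug means differed by less than the SD of any group. The measured differences of miR-199a-5p and miR-143-3p between drugs were -0.40 to 0.25, those of miR-143-3p resting in part on arrays at the floor. For miR-214-3p the bound on the clozapine arrays lay above the haloperidol level, so no fold or direction is given between these drugs.

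Over the 4 groups jointly, limma's F test gave the members adjusted p from 0.798 to 0.956. It passed 0% of all miRNAs, with 3.29% at an unadjusted p under 0.05.

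The spread between the 2 control arrays differed widely among members. Replicate 2 minus replicate 1 was 0.05 for miR-143-3p, 0.27 for miR-199a-3p, 0.62 for miR-214-3p and 1.48 for miR-199a-5p, beside a median size of 0.43 over all tested miRNAs. The control gap of miR-199a-5p was larger than that of 93% of tested miRNAs, and that of miR-143-3p was larger than that of 6.17%. With haloperidol and with risperidone, replicate 2 of miR-143-3p was at the floor, which sets the plotted gaps of -0.97 and -1.46, and these have no rank among the other miRNAs. miR-199a-3p differed by 0.16 to 0.27 in all 4 groups, always with replicate 2 higher.

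**Figure D4:**
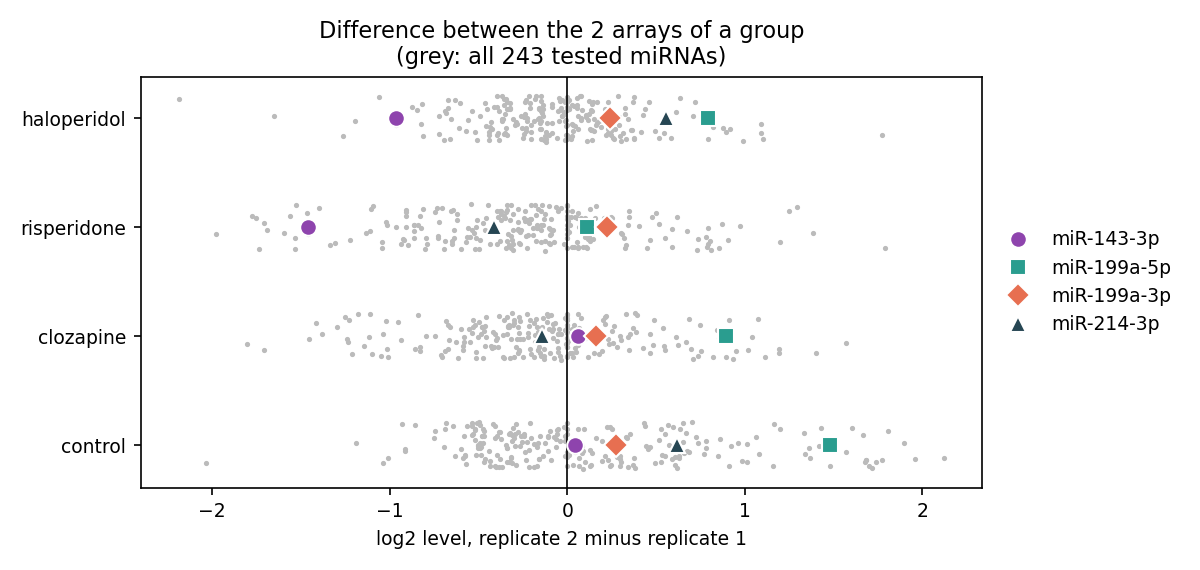
Log2 level of replicate 2 minus replicate 1 (horizontal axis) in each group, for all 243 tested miRNAs (grey, spread vertically for legibility) and the 4 members (coloured symbols). miR-199a-5p is at 1.48 in controls and miR-143-3p at -1.46 with risperidone, a gap set by the floor, while miR-199a-3p stays between 0.16 and 0.27.

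The 2 clusters were compared by their changes, with miR-143-3p as the 1 tested arm of its cluster and the mean of 3 arms for the miR-199a cluster. The log2 change of miR-143-3p was -0.77 for haloperidol, -0.53 for risperidone and -0.77 for clozapine, against -0.24, -0.36 and -0.50 for the mean of the miR-199a cluster. The miR-143-3p value minus that mean was -0.53, -0.17 and -0.27, each smaller than the SD of 0.78 between arrays of a group, with miR-143-3p at the floor on 2 arrays and miR-214-3p not well above background on 3. On single arrays this difference ran from -1.28 (haloperidol replicate 2) to 0.55 (risperidone replicate 1), and was 0.37 and -0.37 in the 2 controls. The clusters were thus not separated by treatment beyond the spread between arrays, and no p is given for a mean over chosen members.

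**Figure D5:**
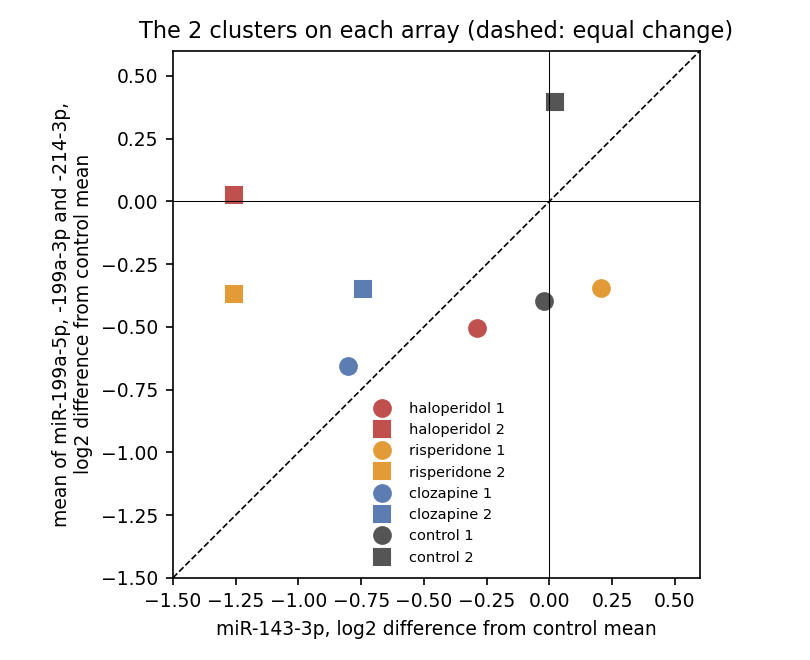
Change of miR-143-3p (horizontal axis) against the mean change of miR-199a-5p, miR-199a-3p and miR-214-3p (vertical axis), both as log2 difference from the control mean, for the 8 arrays (circles are replicate 1, squares replicate 2; dashed line, equal change). Haloperidol replicate 2 and risperidone replicate 2 lie far left at -1.26, where miR-143-3p was at the floor, and the 2 controls lie at -0.40 and 0.40 on the vertical axis.

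Likeness of profiles was measured as the root mean square difference between centred log2 levels over the 8 arrays. Among the members it was 0.33 to 0.48 between arms of the miR-199a cluster and 0.54 to 0.78 between these and miR-143-3p. These values use the floored arrays of miR-143-3p and the arrays where miR-214-3p was not well above background. For miR-199a-3p the median over 183 other miRNAs was 0.33, so its 0.42 to miR-199a-5p and 0.33 to miR-214-3p were no closer than usual. For miR-199a-5p that median was 0.58, above its 0.42 and 0.48 to the other 2 arms. Both arms of miR-199a were detected on all arrays, and the 5 miRNAs most like their mean, of 183 others detected on all arrays, were miR-152-3p (0.09), miR-345-5p (0.14), miR-17-5p (0.18), miR-598-3p (0.20) and miR-148b-3p (0.22), beside a median of 0.43. miR-152-3p was at -0.09, -0.16 and -0.43 against control with haloperidol, risperidone and clozapine. These values share arrays, scaling and slide rows. The miR-143 cluster had no arm detected on all arrays and so no such profile.

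Other miRNAs linked to smooth muscle and connective tissue were mostly detected. Of 9 miRNAs that steer smooth muscle phenotype, 7 were tested, all detected on every array, while the muscle miRNAs miR-133a-3p and miR-1-3p were detected on none. None passed under any drug (0% of all tested), and 4 of 7 lay below 0 under each drug, with medians of -0.12, -0.25 and -0.08. miR-21-5p, which supports growth and matrix production, was at 0.14 with haloperidol, 0.28 with risperidone and 0.41 with clozapine. miR-221-3p, which restrains the cell-cycle inhibitor p27, was at -0.35, -0.36 and -0.26, and its cluster partner miR-222-3p at -0.42, -0.26 and -0.30. Of 11 fibroblast and matrix miRNAs 10 were tested and none passed. There 3, 4 and 4 of 10 lay below 0, with medians of 0.17, 0.04 and 0.07. Of the collagen-targeting miR-29 family, miR-29a-3p was at 0.21, 0.02 and 0.05, miR-29b-3p at 1.12, 1.13 and 0.89 (SE 0.68 each) and miR-29c-3p at 0.30, 0.06 and 0.10. miR-21-3p, the passenger arm of the miR-21 hairpin, was at 0.99, 1.46 and 1.01 (SE 0.54 each), and miR-30a-5p at 0.50, 0.36 and 0.38.

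Markers of other cell types were at or near background for epithelium, where 6 of 6 markers on the array (the miR-200 family with miR-203a-3p) were detected on no array, and for the neuronal miR-124-3p and miR-138-5p, while the neuronal markers miR-9a-5p and miR-128-3p were detected on 8 of 8 arrays. None of the tested markers passed under any drug. Among all tested miRNAs, every drug array lay above both controls for 1.65% and below both for 19.8%. The summed scaled level of the 2 oligodendrocyte markers was 0.91 to 1.58 on the drug arrays and 0.44 to 0.77 on the controls. With haloperidol, risperidone and clozapine miR-338-3p was at 1.02, 1.09 and 1.08 (limma adjusted p = 0.581, 0.454 and 0.326). For miR-219-5p the values were 0.82, 0.59 and 0.10 (SE 0.73 each). The sum of the 5 mesenchymal members was 1.80 to 2.13 on the drug arrays and 2.18 to 2.66 on the controls. Nearly all of the mesenchymal sum was miR-199a-3p, with 1.73 to 2.06 on the drug arrays and 2.10 to 2.54 on the controls. The microglial and leukocyte sum was 0.028 to 0.037 on the drug arrays and 0.044 to 0.050 on the controls, with miR-142-5p detected on none. The skeletal muscle sum was 0 to 0.103 on the drug arrays and 0.078 to 0.142 on the controls. Of the microglial, leukocyte and skeletal muscle markers, 0 were detected on all 8 arrays. Their sums are dim beside a floor of 0.013 for a single miRNA, so the background offset between drug and control arrays bears on them too. The endothelial sum was 0.045 to 0.115 on the drug arrays and 0.082 to 0.117 on the controls. The neuronal sum was 0.80 to 1.31 on the drug arrays and 1.04 to 1.37 on the controls, and the erythrocyte and serum sum was at most 0.017 on the drug arrays and 0.0079 on the controls. Their part in the members' values was not tested. All groups were cultures of the same line, and the sums give marker signal, not counts of cells of a type. In total RNA, fewer cells with a marker and less marker RNA per cell cannot be told apart.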

How the data were processed

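Agilent 1-colour (Cy3) arrays gave, per the file headers, values made with Feature Extraction 10.7.3.1. The authors deposited linear intensity values, not scaled between arrays: spot-level signals and, per miRNA, a summed signal that was 0.1 for 100% of entries called not detected. The deposited flags (unit other, 0 or 1) give detection and spots well above background.

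Spots marked as outliers were left out of each probe's mean; scaling is described with the results, and the floor was the 5th percentile of detected values after scaling. Group means of all 8 arrays were fitted with limma 3.58.1 in R 4.3.3 (lmFit, eBayes, 4 residual degrees of freedom), with no term for slide row, two-sided, p-values adjusted by Benjamini and Hochberg over 243 miRNAs, threshold 0.05. The script was tested on simulated data. With 2 arrays a group, the smallest exact permutation p is 0.333, so none was used. The number of arrays limits the precision: the median standard error was 0.29.

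Replicate numbers equal slide rows in the file headers, and deviations of same-numbered arrays correlated in all 6 pairs of groups (r 0.16 to 0.71 across 243 miRNAs). The alternative fit with the replicate block therefore treats same-numbered arrays as pairs. The main fit had no such block, so its intervals and adjusted p-values do not use the pairing. For miR-199a-3p, limma's adjusted p in the block fit was lower, at 0.229 (haloperidol), 0.178 (risperidone) and 0.155 (clozapine). Slide column equals treatment, and the 2 cannot be told apart.

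Named miRNAs were all arms of the 4 hairpins, the 5 miRNAs nearest to a cluster's profile, and at most 6 per list in list order. The lists were smooth muscle phenotype, fibroblast and matrix, and markers of mesenchyme, epithelium, endothelium, skeletal muscle, neurons, microglia and leukocytes, oligodendrocytes, and erythrocytes and serum. Members and lists were chosen with earlier results of these data known. The normexp alternative took median signals, since no mean column was used. Sequences came from RefSeq, build GRCr8.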

Additional observations from a re-analysis of the deposited data

How the results depend on the processing

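No member passed in any refit with 2 arrays per group (smallest limma adjusted p 0.155, for miR-199a-3p with clozapine and the replicate block). Of 210 refitted changes against control, leaving out arrays included, 192 kept their direction. Many of these could not turn: a fit with another filter or model, or without an array of another drug, returns the main estimate. With the 75th percentile over all probes miR-199a-3p turned to 0.31 with risperidone and 0.37 with clozapine, and miR-199a-5p to 0.29 with clozapine, where 2 members then lay below 0; the median of all miRNAs moved to 0.35 and 0.42 for these drugs. With quantile normalization miR-199a-5p was 0.083 with clozapine. With normexp 1 member lay below 0 with risperidone and 1 with clozapine: miR-143-3p was 0.47 and 0.996, miR-214-3p 0.42 and 0.998, miR-199a-5p -0.032 with haloperidol and 1.04 with clozapine. An offset of 50 was added before scaling in this setting, and its part in these values was not tested. With zero set by undetected miRNAs miR-199a-5p was 0.0043 with clozapine. With the replicate block limma called 1 miRNA with risperidone and 2 with clozapine, against 0 without it, and changed no other call. Leaving out each array in turn, with a lone array assumed to vary like other groups, gave 0 to 5 calls with haloperidol, 0 to 6 with risperidone and 0 to 7 with clozapine, the highest each without control replicate 2. miR-199a-3p then ranged from -0.43 to -0.16, -0.41 to -0.14 and -0.41 to -0.14, miR-199a-5p from -0.71 to 0.77, -0.70 to 0.79 and -1.10 to 0.38, miR-214-3p from -0.77 to -0.15, -1.15 to -0.53 and -1.19 to -0.57, miR-143-3p from -1.26 to -0.29, -1.26 to 0.20 and -0.80 to -0.74, and the cluster difference from -1.28 to 0.22, -0.89 to 0.55 and -0.64 to 0.10. The causes of these differences between settings were not tested. Without a filter 254 miRNAs could be fitted, the rest being at the floor on every array. Signal over background limits every statement on miR-143-3p, miR-199a-5p and miR-214-3p.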
